A study of Mus musculus with 21 samples.

Results

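Loss of Aiolos, the protein made from the gene Ikzf3, was examined in cultured mouse natural killer (NK) cells by sequencing their messenger RNA and comparing 4 Ikzf3 knockout (KO) libraries (columns S1 to S4) with 4 Cre only libraries (S16 to S19). These 8 of the 21 samples of the series were chosen by genotype, and a gene was kept where its level reached 1 RPKM (reads scaled to transcript length in kilobases and to library size in megareads) in at least 3 of the 8 libraries, which left 9631 of 11736 genes. The Ikzf3 KO cells came from mice in which Ikzf3 was deleted conditionally in NK cells. The Cre only cells came from mice that carried the Cre recombinase without a deleted Ikaros family gene. In both groups NK cells were sorted from spleen and kept in medium with recombinant human interleukin 15 (IL-15) at 50 ng/ml, the cytokine on which NK cells depend for survival. For comparison, 4 libraries of Ikzf1 KO cells (Ikaros deleted) and 3 libraries of cells lacking both genes (double knockout, DKO) were used, all cultured in the same way. The labels used here do not state the promoter that drives Cre, the exons deleted, the sex and age of the mice, or whether a library came from 1 mouse or a pool. They speak of biological replicates. Each column of the table is named by its genotype alone, and was assigned to a cultured sample because only the cultured groups match in number.

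Aiolos and Ikaros are zinc finger transcription factors of lymphocytes that bind the same core DNA sequence, form dimers with each other, and recruit chromatin remodelling complexes that can repress or maintain the genes they bind. NK cells kill infected and transformed cells by releasing granules that hold perforin and serine proteases called granzymes. They develop under the control of factors such as T-bet and Eomes, and respond to IL-15 through a receptor that shares its gamma chain and the kinase JAK3 with other cytokine receptors.

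A large difference among the Ikzf3 KO libraries themselves bears on every result. On log2(RPKM + 0.5) values across all genes kept, S1 and S2 correlated with each other at r = 0.99 and S3 and S4 at r = 0.972, whereas libraries of different pairs correlated at 0.887 to 0.906. Compared with the Cre only mean, 465 and 439 genes lay more than 1 log2 unit away in S1 and S2, and 1845 and 2386 genes did so in S3 and S4. There were 780 genes that moved by more than 1 log2 unit in the same direction in S3 and S4 while S1 and S2 stayed within 0.5, and 31 genes with the converse pattern. The Cre only libraries also fell into pairs, S16 with S17 and S18 with S19, but these correlated at 0.961 to 0.974 across pairs. The labels give no batch, and what separates the pairs was not tested. Read depth in the genes that could be counted ran from 8.61 to 12.7 megareads in Ikzf3 KO libraries and from 13.2 to 16 megareads in Cre only libraries, and the counts of the libraries of a group differed by more than sampling noise in every pair. The median SD over genes was 0.363 log2 units in Ikzf3 KO cells and 0.172 in Cre only cells.

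Ikzf3 itself, on mouse chromosome 11 (ENSMUSG00000018168, chr11:98464902-98546031 in mm10, minus strand), checked the labels. It stood at 19.4, 20.2, 15.2 and 16.4 RPKM in the 4 Ikzf3 KO libraries, against 45.0, 44.8, 37.7 and 39.6 RPKM in the 4 Cre only libraries. All 4 Ikzf3 KO libraries lay below all 4 Cre only libraries, with a log2 fold change of -1.21 ± 0.14 (SE; limma, adjusted p = 0.00486). RNA of exons outside a deleted stretch counts towards this value, so it does not measure the protein. Ikzf1 had 84.8, 80.7, 87.4 and 72.9 RPKM in Ikzf3 KO cells, against 57.7, 59.3, 61.1 and 69.4 RPKM in Cre only cells, a difference that did not pass the test (log2 0.39 ± 0.13, adjusted p = 0.129). The other relatives were weakly expressed. Ikzf2 (Helios) averaged 3.75 ± 1.68 RPKM in Ikzf3 KO cells and 1.91 ± 1.33 RPKM in Cre only cells, and Ikzf4 (Eos) averaged 0.628 ± 0.581 and 1.71 ± 0.219 RPKM in the same order (SD, n = 4 each), and neither was called.

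Across all genes, limma called 431 of 9631 genes (4.48%) at the 0.05 threshold on the Benjamini-Hochberg adjusted p, 186 higher (1.93%) and 245 lower (2.54%) in Ikzf3 KO cells. In all 431 the 4 Ikzf3 KO libraries lay on one side of the 4 Cre only libraries. The test takes the libraries of a group as independent, although they fell into pairs, so its p-values may be too small. Without regard to the test, 736 genes (7.64%) were higher and 1013 genes (10.5%) lower with no overlap between the groups, so that most genes without overlap were not called. A stricter reading of agreement asked that each of the 4 Ikzf3 KO libraries lie more than 1 log2 unit from the Cre only mean on the same side. This held for 99 genes above and 86 genes below, of which 84 and 78 were called. The count of calls depended on the library pairs: it was 794 (224 higher, 570 lower) without S3 and S4, 4497 (2082 higher, 2415 lower) without S1 and S2, 53 (39 higher, 14 lower) without S16 and S17, and 38 (19 higher, 19 lower) without S18 and S19. The filter stayed at 3 libraries, so a gene expressed only in the group that lost a pair could not be tested. The balance of higher and lower calls in these fits depends in part on that. A total of 316 genes were called both from S1 and S2 alone and from S3 and S4 alone against the 4 Cre only libraries. Both fits share those Cre only libraries, and they called 794 of 9385 and 4497 of 9431 genes tested. The overlap of 316 therefore does not by itself show agreement between the pairs. Without 1 library the count was 127 without S16, 152 without S17, 158 without S18, 187 without S19 and 181 without S3, and 110 genes (52 higher, 58 lower) were called whichever single library was left out.

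A group of 14 genes stayed called under every one of the 22 alternatives, which included other pseudocounts, scalings, filters and weights and the removal of each library and each pair. They were picked out for this after their values were seen. A gene that the filter left out of a fit, such as Cma1 without S3 and S4, could not qualify. The 8 higher ones were Ctsg, AA465934, Gng11, Plxdc2, Cd28, Emp1, Ifi204 and Sh2d5, and the 6 lower ones were Ccl5, Slfn8, Jaml, Adgrg5, Tox and Ptger4. The sequence of 250 bases before the transcription start is shown for a pair of the higher genes (Ctsg and AA465934) and a pair of the lower genes (Slfn8 and Jaml), as the stretch of DNA next to the start of the genes on which the results turn. The windows lie at chr14:56102575-56102824 on the minus strand for Ctsg, chr11:83291449-83291698 on the plus strand for AA465934, chr11:83020811-83021060 on the minus strand for Slfn8 and chr9:45078933-45079182 on the plus strand for Jaml (RefSeq, build GRCm38.p6). They are written 5′ to 3′ in the direction of the gene, and capitals mark the Ikaros family core sequence, GGGAA or its reverse complement TTCCC.

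Ctsg: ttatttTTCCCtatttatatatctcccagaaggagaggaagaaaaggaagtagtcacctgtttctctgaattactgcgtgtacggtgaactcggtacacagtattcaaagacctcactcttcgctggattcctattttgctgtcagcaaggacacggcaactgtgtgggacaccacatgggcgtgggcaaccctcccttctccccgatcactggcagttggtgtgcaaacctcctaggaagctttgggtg
AA465934: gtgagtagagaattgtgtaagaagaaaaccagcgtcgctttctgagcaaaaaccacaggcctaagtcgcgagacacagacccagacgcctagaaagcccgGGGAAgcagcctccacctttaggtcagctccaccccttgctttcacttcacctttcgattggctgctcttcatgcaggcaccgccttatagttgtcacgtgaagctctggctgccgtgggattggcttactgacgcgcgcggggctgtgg
Slfn8: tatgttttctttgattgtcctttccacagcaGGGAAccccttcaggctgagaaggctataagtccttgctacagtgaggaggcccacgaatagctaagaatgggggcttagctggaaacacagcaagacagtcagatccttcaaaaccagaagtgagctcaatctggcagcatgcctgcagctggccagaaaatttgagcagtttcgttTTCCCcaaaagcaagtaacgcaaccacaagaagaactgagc
Jaml: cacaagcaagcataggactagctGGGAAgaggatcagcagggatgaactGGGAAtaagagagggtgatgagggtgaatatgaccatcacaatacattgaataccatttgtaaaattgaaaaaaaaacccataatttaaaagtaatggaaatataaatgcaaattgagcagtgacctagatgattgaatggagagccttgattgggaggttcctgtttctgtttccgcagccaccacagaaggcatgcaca

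The core occurred once in the Ctsg window, 244 bases before the start, and once in the AA465934 window, 150 bases before it. It occurred at 219 and 41 bases before the start of Slfn8 and at 227 and 201 bases before that of Jaml. Such matches are frequent: 56.0% of 27025 gene windows held at least 1, as did 58.6% of 7365 windows of genes kept. Of the genes called higher 71 of 131 windows held one (54.2%), and of the genes called lower 110 of 185 did (59.5%). The shares among called genes were near that among all genes. Of the 14 genes called under every alternative 7 had a window, and 5 of the 7 held a match (71.4%). The matches are a description of the letters only.

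The widest separations among the rises were those of Ctsg and AA465934. Ctsg encodes cathepsin G, a serine protease best known from the granules of neutrophils and mast cells. It stood at 42.9, 41.0, 78.8 and 37.9 RPKM in Ikzf3 KO cells, against 0.736, 1.12, 0.288 and 0.0592 RPKM in Cre only cells (log2 5.64 ± 0.36, adjusted p = 0.000233). AA465934, annotated as a processed transcript without a protein product, stood at 24.2, 29.0, 22.1 and 33.3 RPKM, against 0.875, 1.05, 1.36 and 1.38 RPKM in Cre only cells (log2 4.05 ± 0.18, adjusted p = 2.48e-05). Both pairs of Ikzf3 KO libraries gave nearly the same size of change for AA465934, 4.03 from S1 and S2 and 4.06 from S3 and S4. Gng11, a gamma subunit of heterotrimeric G proteins, had 22.1, 24.7, 17.7 and 13.7 RPKM in Ikzf3 KO cells, against 0.753, 1.18, 2.02 and 1.13 RPKM in Cre only cells. Ifi204, an interferon-inducible DNA sensor family member, had 8.44, 7.93, 8.17 and 8.77 RPKM, against 1.71, 1.97, 1.04 and 0.55 RPKM in Cre only cells. In none of these genes did the groups overlap, and for Ifi204 the Ikzf3 KO libraries were closer to each other than the Cre only libraries were.

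Cd28, the costimulatory receptor best known from T cells, stood at 29.2, 26.2, 46.5 and 41.6 RPKM in Ikzf3 KO cells, against 2.86, 3.03, 8.77 and 8.77 RPKM in Cre only cells (log2 2.65 ± 0.39, adjusted p = 0.00954). The pairs of libraries can be seen in both groups, and the lowest Ikzf3 KO library still lay above the highest Cre only library. The summed level of 10 measured T cell markers, which include Cd28, ran from 512 to 667 RPKM in Ikzf3 KO libraries and from 428 to 672 RPKM in Cre only libraries. No other T cell marker of the list was called. Plxdc2, a transmembrane protein with a plexin-like domain, averaged 9.16 ± 0.952 RPKM in Ikzf3 KO cells and 1.02 ± 0.699 RPKM in Cre only cells (SD, n = 4 each). Emp1, a membrane protein of the PMP22 family, averaged 47.9 ± 14.3 RPKM and 8.83 ± 2.17 RPKM in the same order. Sh2d5, a protein with an SH2 domain, averaged 25.1 ± 4.68 RPKM in Ikzf3 KO cells and 5.19 ± 0.117 RPKM in Cre only cells.

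**Figure D1:**
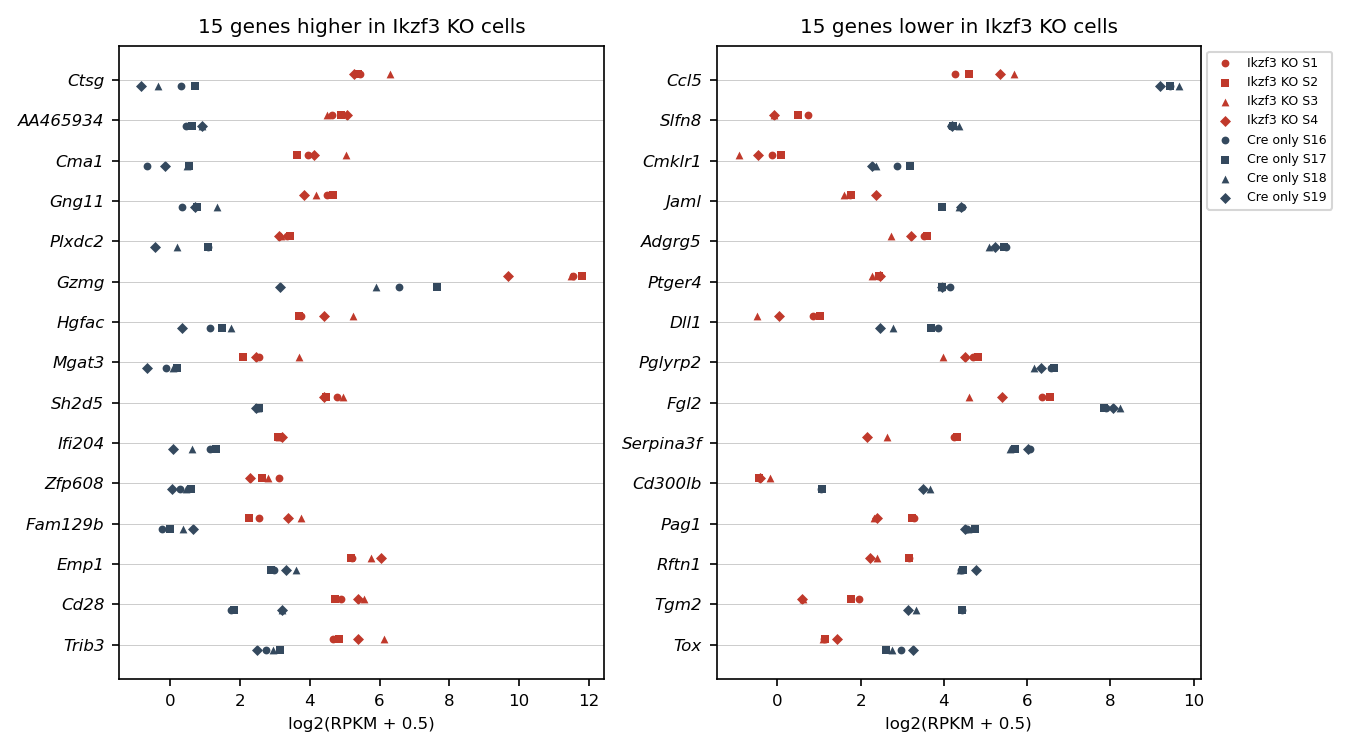
Levels of the 15 genes with the widest gap between the groups in each direction, as log2(RPKM + 0.5) in every library. Red points are the 4 Ikzf3 KO libraries and dark points the 4 Cre only libraries, with a marker shape for each library. In each of the 30 genes all red points lie on one side of all dark points. Ctsg and AA465934 have the widest gaps on the left, Ccl5 and Slfn8 on the right.

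Among the falls, Ccl5 and Slfn8 stood out. Ccl5 encodes the chemokine RANTES, which attracts T cells, NK cells and monocytes. It stood at 18.6, 23.6, 50.6 and 40.1 RPKM in Ikzf3 KO cells, against 684, 690, 801 and 580 RPKM in Cre only cells (log2 -4.45 ± 0.30, adjusted p = 0.000315). Slfn8, a member of the Schlafen family of growth regulatory and antiviral genes, had 1.15, 0.919, 0.447 and 0.443 RPKM, against 17.5, 18.1, 20.0 and 17.9 RPKM in Cre only cells (log2 -3.97 ± 0.21, adjusted p = 6.36e-05). Both fell in each of the 4 Ikzf3 KO libraries. Jaml, an adhesion receptor of leukocytes, had 2.87, 2.93, 2.53 and 4.69 RPKM in Ikzf3 KO cells, against 21.1, 15, 20.1 and 20.7 RPKM in Cre only cells (log2 -2.41 ± 0.20, adjusted p = 0.000884). Adgrg5, an adhesion G protein-coupled receptor, had 11, 11.5, 6.18 and 8.69 RPKM, against 44.4, 42.7, 33.7 and 36.8 RPKM in Cre only cells. In both genes every Ikzf3 KO library lay below every Cre only library.

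Tox, a nuclear factor needed for NK cell development, fell to 1.68, 1.71, 1.65 and 2.20 RPKM in Ikzf3 KO cells, against 7.27, 5.64, 6.25 and 8.99 RPKM in Cre only cells (log2 -1.69 ± 0.18, adjusted p = 0.00288). Ptger4, the prostaglandin E2 receptor EP4, fell to 4.80, 4.93, 4.34 and 5.01 RPKM, against 17.2, 15.1, 14.7 and 15 RPKM in Cre only cells (log2 -1.60 ± 0.12, adjusted p = 0.000483). Ptger4 had nearly the same level in all 4 Ikzf3 KO libraries, and Tox in all but S4, which was higher.

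The rest of the 15 widest rises were Cma1 and Gzmg (granule proteases, described with their neighbours), Hgfac (the activator of hepatocyte growth factor), Mgat3 (a glycosyltransferase), Zfp608 (a zinc finger protein), Fam129b, and Trib3 (a pseudokinase induced by amino acid shortage). Their mean levels ran from 6.15 RPKM for Zfp608 to 2572 RPKM for Gzmg in Ikzf3 KO cells, and from 0.436 RPKM for Mgat3 to 90.8 RPKM for Gzmg in Cre only cells. The rest of the 15 widest falls were Cmklr1, Dll1, Pglyrp2, Fgl2, Serpina3f, Cd300lb, Pag1, Rftn1 and Tgm2. Cmklr1, the chemerin receptor, fell to 0.42, 0.568, 0.0233 and 0.218 RPKM in Ikzf3 KO cells, against 6.84, 8.53, 4.64 and 4.33 RPKM in Cre only cells. Dll1, a Notch ligand, fell to 1.32, 1.54, 0.207 and 0.527 RPKM, against 14, 12.4, 6.32 and 4.97 RPKM in Cre only cells. Pag1 and Rftn1, both proteins of lipid rafts, averaged 6.85 ± 2.55 and 6.45 ± 2.30 RPKM in Ikzf3 KO cells and 23.7 ± 1.85 and 22.3 ± 2.99 RPKM in Cre only cells (SD, n = 4 each). Pglyrp2, a peptidoglycan amidase, averaged 22.6 ± 5.44 RPKM in Ikzf3 KO cells and 86.4 ± 13.2 RPKM in Cre only cells. Fgl2, a secreted and membrane protein related to fibrinogen, averaged 60.0 ± 32.8 RPKM and 257 ± 31.6 RPKM in the same order, and its lower values came from S3 and S4. Tgm2, a transglutaminase, averaged 2.08 ± 1.24 RPKM in Ikzf3 KO cells and 15 ± 7.02 RPKM in Cre only cells. Cd300lb, an immunoglobulin-type receptor, averaged 0.275 ± 0.0715 RPKM in Ikzf3 KO cells, but its Cre only level was split, at 1.56 and 1.61 RPKM in S16 and S17 and 12.2 and 10.7 RPKM in S18 and S19.

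Several of these genes lie together on chromosome 11. From Slfn5 to Ccl5 (chr11:82951349-83530518 in mm10, a stretch of 0.579 Mb), 13 of 15 genes in the table were kept and 4 were called, in a stretch chosen because called genes lie in it (4.48% of all genes and 4.64% of those on chromosome 11 were called): Slfn8, Heatr9 and Ccl5 lower and AA465934 higher. Ccl5 lies 14.9 Mb from Ikzf3 on the same chromosome. Whether that position bears on the changes in the stretch was not tested. Heatr9, next to Ccl5, had 0.0449, 0.121, 1.06 and 1.05 RPKM in Ikzf3 KO cells, against 3.21, 2.75, 3.92 and 1.86 RPKM in Cre only cells (log2 -1.82 ± 0.39, adjusted p = 0.0383), and it was called in 2 of 8 fits that left out a library. Neighbours that were not called lay between them. Slfn9 averaged 4.05 ± 1.31 RPKM in Ikzf3 KO cells and 7.08 ± 1.30 RPKM in Cre only cells, and Slfn2 118 ± 50.7 and 155 ± 12.5 RPKM in the same order (SD, n = 4 each), and neither was called. Schlafen genes are close copies of each other, so reads may have been shared out between them. The chemokine genes Ccl3 and Ccl4 lie further along the chromosome. Ccl3 had 46.0, 54.0, 5.50 and 2.04 RPKM in Ikzf3 KO cells, against 225, 234, 97.9 and 75.0 RPKM in Cre only cells (log2 -3.33 ± 0.96, adjusted p = 0.0907). Ccl4 had 92.1, 112, 12 and 6.12 RPKM, against 394, 463, 199 and 126 RPKM in Cre only cells (log2 -3.10 ± 0.92, adjusted p = 0.0957). The groups did not overlap in either, but both differed so much between library pairs that they were not called.

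**Figure D2:**
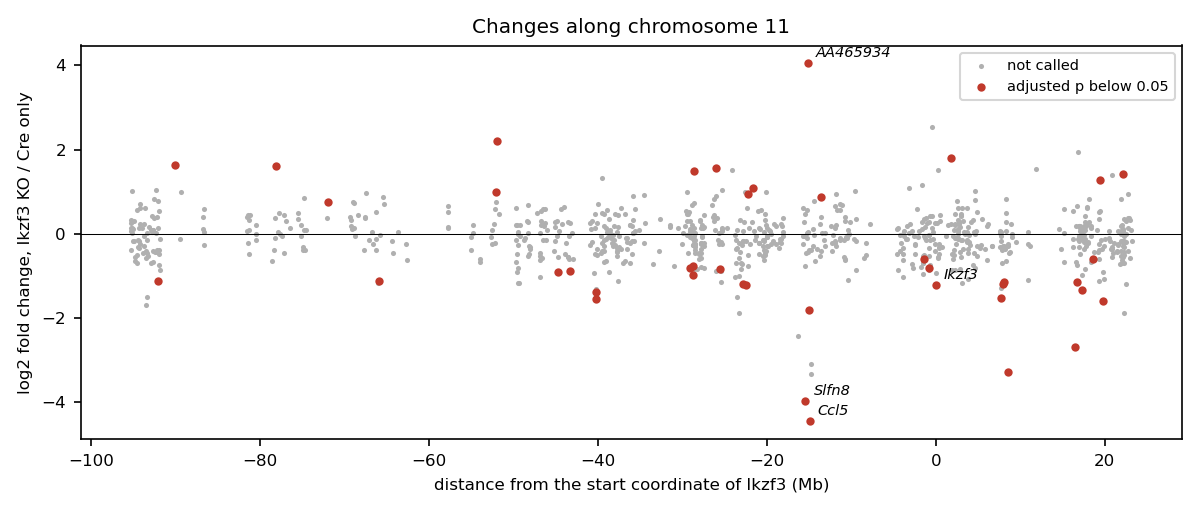
Log2 fold change of Ikzf3 KO over Cre only for every gene kept on chromosome 11, against the distance in megabases (Mb) from the start coordinate of Ikzf3. Red points are genes with an adjusted p below 0.05 and grey points all others. AA465934, Slfn8 and Ccl5 lie at about the same distance, near 15 Mb, beside the called gene Heatr9 and the uncalled genes Ccl3 and Ccl4 at log2 -3.33 and -3.10, and Ikzf3 itself is at the origin.

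The granule protease genes gave the densest set of rises. Of 13 granule serine proteases measured, 6 rose (Ctsg, Cma1, Gzmg, Gzmn, Gzmd, Gzmk) and 1 fell (Gzma). This is 53.8% called, against 4.48% of all genes, and the median log2 fold change of the 13 was 2.62, against -0.02 for all genes. The list was written with earlier results of these data known, so this contrast is a description and not a test. Most of the protease genes lie in a stretch of 0.321 Mb on chromosome 14 (chr14:55941451-56262260 in mm10). There 6 of 11 kept genes were called, namely Cma1, Ctsg, Gzmd, Gzmg, Gzmn and the predicted gene Gm8961. The stretch was picked with these results known, and 5.21% of all genes kept on chromosome 14 were called. Cma1, mast cell chymase, had 15, 12, 32.7 and 16.8 RPKM in Ikzf3 KO cells, against 0.127, 0.935, 0.886 and 0.393 RPKM in Cre only cells (log2 4.15 ± 0.36, adjusted p = 0.00113). Gzmg had 3009, 3548, 2901 and 829 RPKM in Ikzf3 KO cells, against 93.5, 202, 59.6 and 8.41 RPKM in Cre only cells (log2 5.32 ± 0.89, adjusted p = 0.0149). Gzmd had 6278, 7303, 4901 and 2082 RPKM, against 478, 950, 296 and 49.5 RPKM in Cre only cells (log2 4.02 ± 0.82, adjusted p = 0.0316). Gzmn had 5.78, 5.29, 5.46 and 1.42 RPKM, against 0.21, 0.618, 0.15 and 0.0618 RPKM in Cre only cells (log2 2.62 ± 0.40, adjusted p = 0.0112). In all of the granzymes d, g and n the S4 library was lowest among the Ikzf3 KO libraries and S19 lowest among the Cre only libraries.

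Gzme and Gzmf, neighbours of these genes, averaged higher in Ikzf3 KO cells without passing the test. The groups did not overlap for Gzme. They overlapped for Gzmf, at 14.6 RPKM in the Ikzf3 KO library S4 and 15.7 RPKM in the Cre only library S17. Gzme averaged 2204 ± 1412 RPKM in Ikzf3 KO cells and 330 ± 284 RPKM in Cre only cells (SD, n = 4 each; log2 3.18 ± 0.93, adjusted p = 0.0907). Gzmf averaged 77.6 ± 42.2 RPKM and 7.37 ± 6.43 RPKM in the same order (log2 3.6 ± 0.94, adjusted p = 0.0672). Granzymes d to g and n are close copies of each other and reads may have been shared out between them, so the single genes are less certain than the group. Cma1, Ctsg and Gzmn were called in all 8 fits that left out a library, Gzmg in 7 (lost without S3) and Gzmd in 3. The abundant end of the same stretch did not follow. Gzmc averaged 14236 ± 2743 RPKM in Ikzf3 KO cells and 13851 ± 5199 RPKM in Cre only cells (adjusted p = 0.85). Gzmb, the main cytotoxic granzyme, had 9104, 10586, 1841 and 1795 RPKM in Ikzf3 KO cells, against 9827, 11121, 9187 and 7955 RPKM in Cre only cells. S1 and S2 thus lay within the Cre only range for Gzmb and S3 and S4 far below it, and the difference was not called (log2 -1.16 ± 0.60, adjusted p = 0.274).

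**Figure D3:**
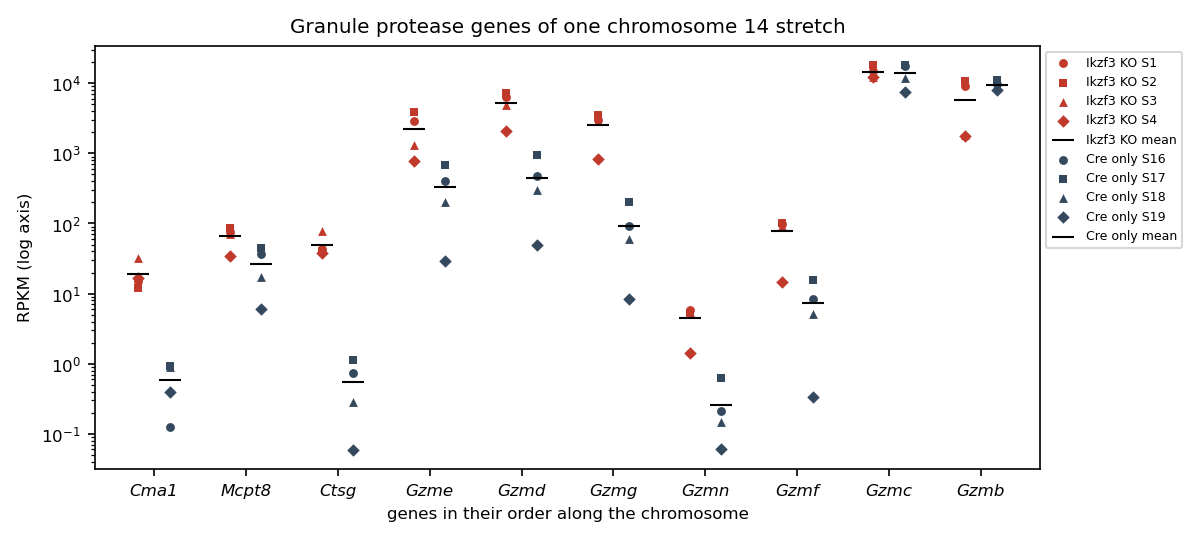
Levels in RPKM, on a log axis, of the granule protease genes of the chromosome 14 stretch in their order along the chromosome. Red points are Ikzf3 KO libraries, dark points Cre only libraries, bars group means, and each library has its own marker shape. Cma1, Ctsg, Gzmd, Gzmg, Gzmn and the uncalled Gzme show no overlap between the groups, Gzmc overlaps fully, and Gzmb is low only in S3 and S4.

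A pair of granzymes on chromosome 13 moved in opposite directions. Gzma, the other main granzyme of NK cells, fell to 4696, 6690, 3413 and 4668 RPKM in Ikzf3 KO cells, against 11749, 10819, 11394 and 9506 RPKM in Cre only cells (log2 -1.20 ± 0.24, adjusted p = 0.029). Gzmk, a granzyme of less mature lymphocytes, rose to 6.54, 6.48, 13.8 and 23 RPKM, against 2.19, 1.96, 3.10 and 2.25 RPKM in Cre only cells (log2 2.00 ± 0.38, adjusted p = 0.0242). Each was called in 3 of 8 fits that left out a library. Prf1, which encodes perforin, had 1048, 918, 490 and 229 RPKM in Ikzf3 KO cells, against 740, 1095, 654 and 390 RPKM in Cre only cells, and the groups overlapped (adjusted p = 0.785). Limma called none of the 14 genes measured for perforin, granule storage and exocytosis, and limma voom on recovered reads called 1. An unadjusted p below 0.05 was found for 4 of the 14, against 2230 of all 9631 genes.

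Cathepsin G and chymase are also products of mast cells and neutrophils, so markers of those cells were read beside them. Of 8 markers of mast cells and basophils 3 had values. Their summed level ran from 35.9 to 91.3 RPKM in Ikzf3 KO libraries and from 9.94 to 50.6 RPKM in Cre only libraries, most of it from Mcpt8, a protease gene of the same chromosome 14 stretch that was not called. Cpa3 (carboxypeptidase A3 of mast cells) averaged 3.19 ± 1.65 RPKM in Ikzf3 KO cells and 5.71 ± 1.47 RPKM in Cre only cells (SD, n = 4 each), and Hdc was at or below 0.144 RPKM in all 8 libraries. Of 16 markers of macrophages, monocytes and neutrophils 3 had values, with a summed level of 25.4 to 77.4 RPKM in Ikzf3 KO libraries and 15 to 34.6 RPKM in Cre only libraries. Lyz2 was at 0 in all but S1 (0.192 RPKM), and Cd14 rose to 2.66 ± 1.38 RPKM in Ikzf3 KO cells, against 0.249 ± 0.246 RPKM in Cre only cells (adjusted p = 0.012). In bulk RNA, fewer cells of a type and less RNA per cell cannot be told apart.

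Of 7 serpins measured, which are inhibitors of serine proteases, 1 rose, 2 fell and 4 were not called (42.9% called, against 4.48% of all genes). Serpinb1a, an inhibitor of neutrophil-type proteases including cathepsin G, rose to 19.7, 21.9, 43.4 and 49.4 RPKM in Ikzf3 KO cells, against 3.03, 3.57, 7.22 and 4.62 RPKM in Cre only cells (log2 2.69 ± 0.35, adjusted p = 0.00596). Serpina3g fell to 184, 238, 53.5 and 76.3 RPKM, against 560, 486, 441 and 544 RPKM in Cre only cells (log2 -2.12 ± 0.44, adjusted p = 0.0323). Serpina3f fell to 18.4, 19.5, 5.69 and 3.96 RPKM, against 66.1, 51.9, 47.8 and 64.0 RPKM in Cre only cells (log2 -2.51 ± 0.47, adjusted p = 0.024). Serpina3f and Serpina3g are close copies of each other. Serpinb1a was called in all 8 fits without a library, Serpina3f in 3 and Serpina3g in 2.

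**Figure D4:**
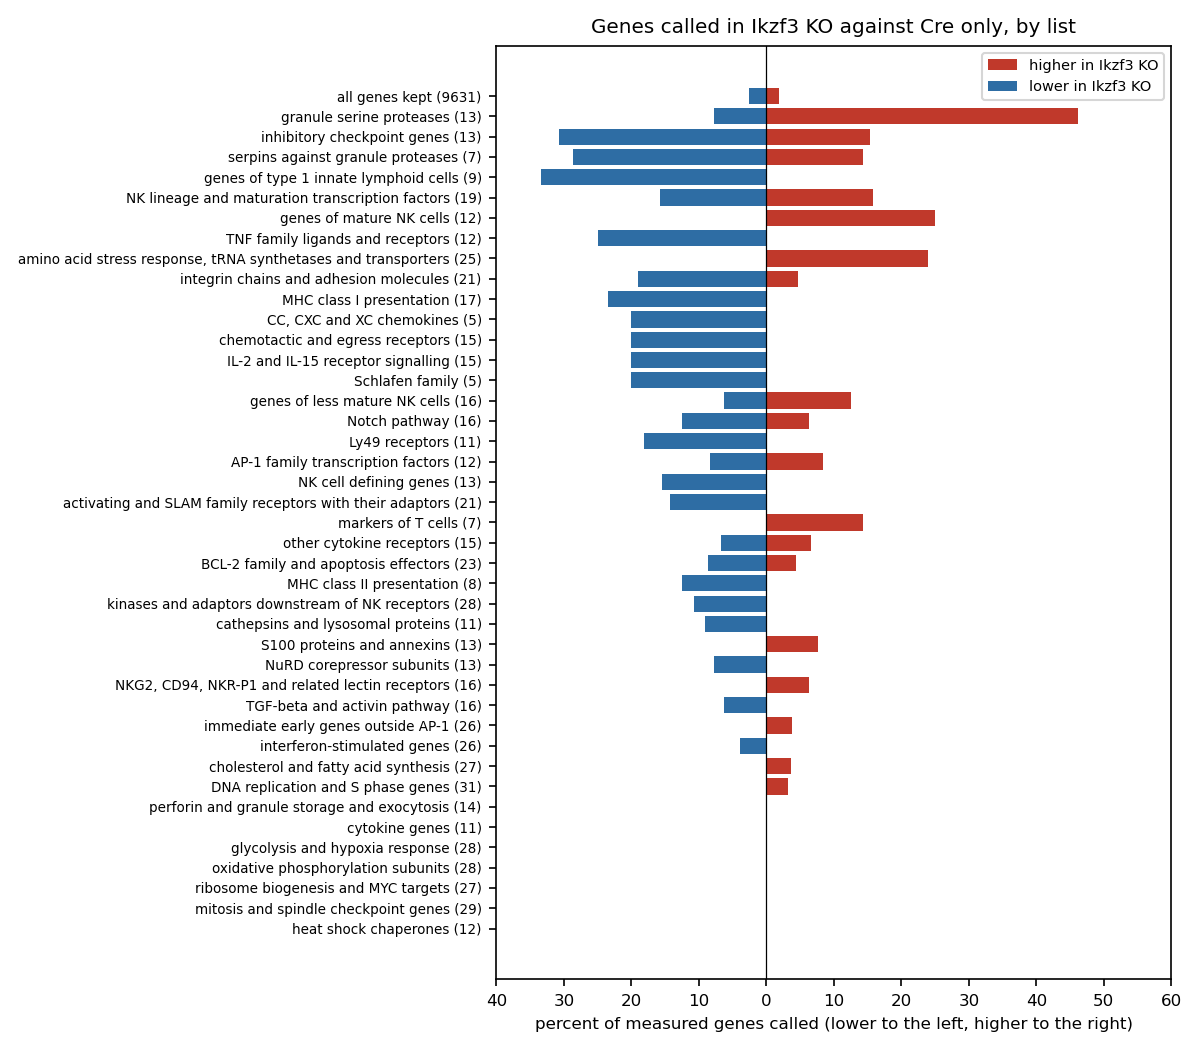
Share of the measured genes of each list that were called, with genes lower in Ikzf3 KO cells drawn to the left and genes higher to the right, for the lists with at least 5 measured genes. The number of measured genes stands in brackets. All genes kept form the top bar (4.48% called), granule serine proteases have 53.8% called, and the 7 lists at the bottom have none.

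Of 19 transcription factors of NK cell development and maturation, 3 rose, 3 fell and 13 were not called (31.6% called, against 4.48% of all genes). The rises were Klf2, a factor of lymphocyte quiescence and egress, Myb, and Bach2, a repressor of effector differentiation. Klf2 had 14, 15.8, 11 and 8.70 RPKM in Ikzf3 KO cells, against 3.26, 2.87, 5.99 and 5.93 RPKM in Cre only cells (log2 1.39 ± 0.28, adjusted p = 0.0289). Bach2 averaged 2.58 ± 0.261 RPKM in Ikzf3 KO cells and 1.15 ± 0.191 RPKM in Cre only cells, and Myb 2.44 ± 1.15 and 0.564 ± 0.148 RPKM in the same order. The falls were Tox, Bcl11b and Tbx21. Tbx21, which encodes T-bet, had 40.4, 39.8, 39.9 and 37.6 RPKM in Ikzf3 KO cells, against 61.3, 69.5, 54.5 and 54.8 RPKM in Cre only cells. This small fall (log2 -0.59 ± 0.13, adjusted p = 0.0393) was lost in each of the 8 fits that left out a library. Bcl11b, a factor of T cells and innate lymphoid cells, averaged 0.29 ± 0.0656 RPKM in Ikzf3 KO cells and 2.05 ± 0.976 RPKM in Cre only cells. Of 12 AP-1 factors measured, Jdp2 rose and Fos fell (16.7% called, against 4.48% of all genes). Jdp2 averaged 16.6 ± 2.61 RPKM in Ikzf3 KO cells and 9.47 ± 1.29 RPKM in Cre only cells. Fos averaged 0.467 ± 0.382 and 1.70 ± 0.25 RPKM in the same order (SD, n = 4 each). Jdp2 and Fos were each called in 2 of 8 fits without a library.

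Of 15 measured genes of IL-2 and IL-15 receptor signalling, 3 fell and none rose in the fit of all 8 libraries (20% called, against 4.48% of all genes), with a median log2 fold change of -0.50, against -0.02 for all genes. Without S3 and S4, 4 were lower and 1 higher, and without S1 and S2, 7 were lower and 3 higher. Among all genes those fits called 570 lower and 224 higher of 9385, and 2415 lower and 2082 higher of 9431. Il2rg, the common gamma chain, fell to 91.2, 87.9, 77.8 and 53.5 RPKM in Ikzf3 KO cells, against 192, 184, 160 and 165 RPKM in Cre only cells (log2 -1.20 ± 0.19, adjusted p = 0.012). Jak3, the kinase bound to it, fell to 35.6, 36.8, 44.7 and 32.5 RPKM, against 74.9, 88.1, 73.2 and 63.5 RPKM in Cre only cells (log2 -0.99 ± 0.16, adjusted p = 0.012). Both were called in 7 of 8 fits without a library and lost without S16. Il15ra fell to 1.57 ± 0.285 RPKM in Ikzf3 KO cells, against 2.87 ± 0.308 RPKM in Cre only cells. Of 15 other cytokine receptors, Il27ra fell and Il10ra rose (13.3% called, against 4.48% of all genes). Il27ra averaged 15.2 ± 5.84 RPKM in Ikzf3 KO cells and 73.3 ± 25.4 RPKM in Cre only cells. Il10ra averaged 80.3 ± 26.1 and 38.1 ± 2.46 RPKM in the same order (SD, n = 4 each). Inpp5d, the inositol phosphatase SHIP-1, fell to 27.6 ± 6.76 RPKM, against 54.4 ± 4.58 RPKM in Cre only cells.

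Of 17 genes of MHC class I presentation, 4 fell and none rose (23.5% called, against 4.48% of all genes). Without S3 and S4, 9 were lower and none higher, but without S1 and S2, 7 were lower and 6 higher, with a median log2 fold change of 0.001. The former fit called 570 lower among all 9385 genes tested. The latter called 2415 lower and 2082 higher among 9431. Nlrc5, the transactivator of class I genes, fell to 4.99, 4.26, 2.51 and 3.23 RPKM in Ikzf3 KO cells, against 10.7, 12.7, 12 and 12.8 RPKM in Cre only cells (log2 -1.60 ± 0.20, adjusted p = 0.00501). H2-K1, a class I heavy chain, fell to 773, 843, 940 and 820 RPKM, against 1566, 1610, 1381 and 1299 RPKM in Cre only cells (log2 -0.79 ± 0.16, adjusted p = 0.0307). H2-Q4 averaged 44.1 ± 7.06 RPKM in Ikzf3 KO cells and 68.9 ± 2.01 RPKM in Cre only cells, and the immunoproteasome subunit Psmb10 averaged 81.5 ± 21.1 and 161 ± 22.5 RPKM in the same order (SD, n = 4 each). Nlrc5 was called in all 8 fits without a library, H2-K1 in 2, and H2-Q4 and Psmb10 in 1 each. Class I genes are close copies of each other, so reads may have been shared out between them. Of 26 interferon-stimulated genes, Zbp1, a sensor of nucleic acids, fell to 6.70 ± 2.00 RPKM, against 17.1 ± 1.81 RPKM in Cre only cells, and no other was called (3.85%, near the 4.48% of all genes). Cd74, the class II invariant chain, was at 0.776, 0.485, 0.62 and 0.526 RPKM in Ikzf3 KO cells, against 17.5, 10.5, 1.69 and 3.21 RPKM in Cre only cells (adjusted p = 0.0463), and was called in 1 of 8 fits without a library.

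Of 13 inhibitory checkpoint genes, 2 rose and 4 fell (46.2% called, against 4.48% of all genes). Havcr2, which encodes TIM-3, rose to 79.0, 67.1, 79.7 and 32.0 RPKM in Ikzf3 KO cells, against 15.4, 20.3, 13.2 and 6.54 RPKM in Cre only cells (log2 2.19 ± 0.39, adjusted p = 0.0179). Ctla4 rose to 12.8 ± 8.44 RPKM, against 1.72 ± 0.923 RPKM in Cre only cells (SD, n = 4 each). Entpd1, the ectonucleotidase CD39, fell to 9.71, 11.3, 10.4 and 3.6 RPKM in Ikzf3 KO cells, against 23.4, 29.1, 35.0 and 26.2 RPKM in Cre only cells (log2 -1.74 ± 0.33, adjusted p = 0.0232). Lilrb4a, an inhibitory immunoglobulin-like receptor, fell to 0.77 ± 0.252 RPKM, against 2.66 ± 0.165 RPKM in Cre only cells. Tox and Cd96 completed the falls, and Cd96 also counts among the activating receptors.

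Of 11 Ly49 receptors, which bind class I molecules, 2 fell and none rose (18.2% called, against 4.48% of all genes). Klra5 fell to 13.7, 16.7, 4.83 and 10.1 RPKM in Ikzf3 KO cells, against 40.9, 42.1, 45.0 and 32.3 RPKM in Cre only cells (log2 -1.89 ± 0.33, adjusted p = 0.0179). Klra6 fell to 3.32, 3.16, 3.20 and 6.72 RPKM, against 22.3, 19, 11.2 and 10.1 RPKM in Cre only cells (log2 -1.80 ± 0.31, adjusted p = 0.0172). These genes are close copies of each other too. The list depended on the library pair: without S3 and S4, 8 of the 11 were lower and none higher, and without S1 and S2, 2 were lower and 3 higher. Over all genes, 570 of 9385 were lower in the former fit, and 2415 of 9431 lower and 2082 higher in the latter. Among 16 lectin receptors of the NKG2 and NKR-P1 families, of which no other was called (6.25%), Klrg1, a marker of mature NK cells, rose to 28.2, 29.8, 63.9 and 48.3 RPKM, against 17.2, 16.7, 11.2 and 9 RPKM in Cre only cells (log2 1.58 ± 0.31, adjusted p = 0.0275). Among 21 activating and SLAM family receptors and adaptors, Cd226 (DNAM-1), Cd96 and Crtam, which share nectin and nectin-like ligands, fell and none rose (14.3% called, against 4.48% of all genes). Limma voom on recovered reads called 1 of the 21, and without S3 and S4 or without S1 and S2, 2 and 3 of them were higher. The fits that left out those pairs called 224 of 9385 and 2082 of 9431 genes higher. Crtam was called in 1 of 8 fits without a library and was lost with median ratio rescaling, quantile normalization and voom, and Cd226 and Cd96 were called in 4 of 8 each. Cd226 averaged 8.26 ± 4.08 RPKM in Ikzf3 KO cells and 27.1 ± 6.43 RPKM in Cre only cells, Cd96 105 ± 22.7 and 206 ± 24.4 RPKM, and Crtam 4.63 ± 0.993 and 14.8 ± 7.42 RPKM in the same order (SD, n = 4 each).

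Of 21 integrin chains and adhesion molecules, 4 fell and 1 rose (23.8% called, against 4.48% of all genes), and without S1 and S2 9 were lower and 6 higher. That last fit called 2415 lower and 2082 higher among all 9431 genes tested. Of 15 chemotactic and egress receptors 3 fell (20% called). Itgax, which encodes CD11c, fell to 19.2, 22.8, 35.7 and 29.0 RPKM in Ikzf3 KO cells, against 76.0, 80.8, 114 and 94.6 RPKM in Cre only cells (log2 -1.78 ± 0.22, adjusted p = 0.00501). Itga1 (CD49a) averaged 4.03 ± 1.16 RPKM in Ikzf3 KO cells and 8.98 ± 2.37 RPKM in Cre only cells, and Icam2 4.18 ± 1.75 and 9.64 ± 1.25 RPKM in the same order (SD, n = 4 each). The receptors that fell were Cmklr1, Ptger4 and Cxcr3, and Cxcr3 had 12.8, 13.9, 4.91 and 11.2 RPKM in Ikzf3 KO cells, against 31.0, 31.0, 26.9 and 33.0 RPKM in Cre only cells (log2 -1.56 ± 0.29, adjusted p = 0.0232). Of 12 TNF family genes 3 fell (25% called, against 4.48% of all genes). Tnfsf10 (TRAIL) fell to 13.9 ± 5.05 RPKM in Ikzf3 KO cells, against 31.1 ± 5.33 RPKM in Cre only cells. Tnfsf8 fell to 2.06 ± 0.67 RPKM, against 7.18 ± 1.66 RPKM. Tnfrsf1a, a receptor for TNF, fell to 34.5 ± 0.462 RPKM, against 49.5 ± 1.85 RPKM. Tgfbr1, a receptor for TGF-beta, fell to 11.9 ± 1.99 RPKM, against 24.6 ± 2.77 RPKM in Cre only cells. Among 16 Notch pathway genes, Dll1 and Psen2 fell and Jag2 rose (18.8% called, against 4.48% of all genes). Psen2 averaged 3.08 ± 0.288 RPKM in Ikzf3 KO cells and 7.16 ± 0.643 RPKM in Cre only cells. Jag2 averaged 3.75 ± 0.489 and 1.60 ± 0.468 RPKM in the same order.

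Of 9 measured genes that mark type 1 innate lymphoid cells, close relatives of NK cells, 3 fell (Inpp4b, Itga1 and Tnfsf10) and none rose (33.3% called, against 4.48% of all genes). Their summed level ran from 169 to 257 RPKM in Ikzf3 KO libraries and from 245 to 606 RPKM in Cre only libraries, where S16 and S17 were the high ones. Inpp4b, a phosphoinositide phosphatase, averaged 2.65 ± 0.976 RPKM in Ikzf3 KO cells and 8.11 ± 1.85 RPKM in Cre only cells (SD, n = 4 each). The identity of the cells was checked with 13 NK cell genes, whose summed level ran from 8513 to 21186 RPKM in Ikzf3 KO libraries and from 21514 to 26610 RPKM in Cre only libraries. The granzymes make up most of this sum, and besides Gzma and Tbx21 no gene of it was called. Summed markers of B cells ran from 28.3 to 107 RPKM in Ikzf3 KO libraries, with S3 and S4 the high ones, and from 20.8 to 40.2 RPKM in Cre only libraries. Those of dendritic cells ran from 39.5 to 49.4 RPKM and from 47.3 to 62.5 RPKM, and those of other innate lymphoid cells from 11.6 to 30.1 RPKM and from 19.4 to 122 RPKM, in the same order. Their part in the results was not tested.

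Of 25 genes of the amino acid stress response, 6 rose and none fell (24% called, against 4.48% of all genes). Without S3 and S4, 8 were higher and none lower, and without S1 and S2, 11 were higher and 4 lower. By comparison, all genes gave 224 higher and 570 lower of 9385, and 2082 higher and 2415 lower of 9431. Asns, asparagine synthetase, rose to 38.7, 46.6, 44.7 and 34.6 RPKM in Ikzf3 KO cells, against 8.57, 9.84, 22.1 and 20.3 RPKM in Cre only cells (log2 1.51 ± 0.31, adjusted p = 0.0309). Trib3 rose to 24.7, 28.2, 69.0 and 41.6 RPKM, against 6.18, 8.38, 7.20 and 5.15 RPKM in Cre only cells (log2 2.42 ± 0.31, adjusted p = 0.00565). Slc1a4, a transporter of neutral amino acids, rose to 8.47 ± 2.26 RPKM, against 2.42 ± 0.627 RPKM in Cre only cells. Mthfd2, a mitochondrial enzyme of folate metabolism, rose to 51.7 ± 7.70 RPKM, against 26.0 ± 4.39 RPKM. Chac1, which degrades glutathione, rose to 5.30 ± 1.76 RPKM, against 1.14 ± 0.789 RPKM, and Cars, a tRNA synthetase, to 15.7 ± 5.63 RPKM, against 6.24 ± 1.74 RPKM in Cre only cells (SD, n = 4 each). Trib3 and Slc1a4 were called in all 8 fits without a library, Mthfd2 in 5, Asns in 3, and Chac1 and Cars in 2 each. Scd1, a fatty acid desaturase, rose to 29.6 ± 7.89 RPKM, against 6.11 ± 2.18 RPKM in Cre only cells, as the only one called of 27 lipid synthesis genes (3.7%). Dusp4, a phosphatase of MAP kinases, rose to 4.23 ± 1.17 RPKM, against 1.90 ± 0.164 RPKM in Cre only cells, as the only one called of 26 immediate early genes outside AP-1 (3.85%). Both shares are near the 4.48% of all genes. Bcl2, an inhibitor of apoptosis, fell to 34 ± 9.16 RPKM in Ikzf3 KO cells, against 62.1 ± 6.45 RPKM in Cre only cells.

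Growth and metabolism lists mostly separated the Ikzf3 KO libraries from each other. Limma called none of 27 genes of ribosome biogenesis and MYC targets (1 at an unadjusted p below 0.05, and none with limma voom on recovered reads), with a median log2 fold change of -0.87. The median was 0.31 without S3 and S4, with 1 gene higher and none lower, and -1.87 without S1 and S2, with 1 higher and 26 lower. Of 31 genes of DNA replication and S phase, 1 was called higher (3.23%, against 4.48% of all genes), with a median of -0.20. Their median was 0.24 without S3 and S4 and -0.72 without S1 and S2, where 15 were lower. For 28 glycolysis and hypoxia genes the medians were 0.23, -0.05 and 0.68 in the same order, and none, none and 7 were called higher. The fit without S1 and S2 called 2082 higher and 2415 lower among all 9431 genes tested, to be read beside these counts. Limma on all 8 libraries, with or without voom, called none among the 28 glycolysis and hypoxia genes, 28 genes of oxidative phosphorylation, 29 of mitosis, 12 heat shock chaperones and 11 cytokines. At an unadjusted p below 0.05 these lists held 2 of 28, 4 of 28, 7 of 29, 1 of 12 and 4 of 11 genes in that order. All genes tested held 2230 of 9631.

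Ikzf3 KO cells were next set against Ikzf1 KO cells, which retained the intact Ikzf3 gene. The 2-group fit called 1033 of 9643 genes (10.7%), 512 higher (5.31%) and 521 lower (5.4%) in Ikzf3 KO cells. AA465934 averaged 27.1 ± 5 RPKM in Ikzf3 KO cells and 1.46 ± 0.358 RPKM in Ikzf1 KO cells (log2 3.82 ± 0.19, adjusted p = 4.29e-05), and Slfn8 0.74 ± 0.354 and 12.6 ± 1.74 RPKM in the same order (log2 -3.44 ± 0.22, adjusted p = 4.82e-05). Ccl5 averaged 33.2 ± 14.8 RPKM in Ikzf3 KO cells and 271 ± 50.8 RPKM in Ikzf1 KO cells (log2 -3.10 ± 0.31, adjusted p = 0.00049), where the Cre only mean was 689 ± 90.1 RPKM. Cd28 averaged 35.9 ± 9.76 RPKM in Ikzf3 KO cells and 4.84 ± 1.64 RPKM in Ikzf1 KO cells (log2 2.78 ± 0.27, adjusted p = 0.000389). Havcr2 averaged 64.5 ± 22.4 and 8 ± 2.53 RPKM in the same order (log2 2.91 ± 0.34, adjusted p = 0.00116). For these 5 genes the Ikzf3 KO level differed from the Ikzf1 KO level in the same direction as from the Cre only level. Ctsg averaged 50.1 ± 19.2 RPKM in Ikzf3 KO cells and 12.4 ± 4.28 RPKM in Ikzf1 KO cells (log2 1.97 ± 0.30, adjusted p = 0.00402), both above the 0.55 ± 0.472 RPKM of Cre only cells.

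Other genes were not called between the single knockouts. Jaml averaged 3.26 ± 0.974 RPKM in Ikzf3 KO cells and 2.33 ± 0.786 RPKM in Ikzf1 KO cells (log2 0.42 ± 0.25, adjusted p = 0.272), against 19.2 ± 2.83 RPKM in Cre only cells. Klf2 averaged 12.4 ± 3.18 and 11.9 ± 1.74 RPKM (log2 0.03 ± 0.20, adjusted p = 0.917), against 4.51 ± 1.68 RPKM in Cre only cells. Plxdc2 averaged 9.16 ± 0.952 and 8.52 ± 1.02 RPKM (log2 0.10 ± 0.13, adjusted p = 0.616), against 1.02 ± 0.699 RPKM in Cre only cells. Cma1 averaged 19.1 ± 9.24 and 13.1 ± 5.34 RPKM (log2 0.51 ± 0.37, adjusted p = 0.353), against 0.585 ± 0.392 RPKM in Cre only cells. Tgm2 averaged 2.08 ± 1.24 and 1.60 ± 0.707 RPKM (log2 0.24 ± 0.41, adjusted p = 0.698), against 15 ± 7.02 RPKM in Cre only cells. A difference that did not pass does not show that the levels are equal.

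The effect of losing Ikzf3 in cells that already lacked Ikzf1 was read from DKO against Ikzf1 KO libraries, which are separate from the 8 libraries of the main comparison. That fit called 1700 of 9540 genes (17.8%), 759 higher (7.96%) and 941 lower (9.86%) in DKO cells. Of the 431 genes called in Ikzf3 KO against Cre only, 372 passed the filter on low values there (142 of 186 rises and 230 of 245 falls). The others were too low in those libraries, such as Mgat3, at 0.16 ± 0.173 RPKM in DKO and 0.107 ± 0.0473 RPKM in Ikzf1 KO cells. Of the 372, 233 moved in the same direction (62.6%, over genes that are not independent), against 58.2% of genes not called. Of the 142 kept genes that had risen, 30 were called higher in DKO cells (21.1%) and 14 lower. Of the 230 that had fallen, 47 were called lower (20.4%) and 17 higher. The 77 genes called the same way in both comparisons are 4.53% of the 1700.

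AA465934 and Slfn8 changed in the same direction whether Ikzf1 was present or not. Both lie in the chromosome 11 stretch, on the chromosome of Ikzf3, and whether that position bears on their changes was not tested. AA465934 averaged 26.3 ± 4.08 RPKM in DKO cells and 1.46 ± 0.358 RPKM in Ikzf1 KO cells (log2 3.79 ± 0.18, adjusted p = 3.32e-05). Slfn8 averaged 1.44 ± 0.103 and 12.6 ± 1.74 RPKM (log2 -2.75 ± 0.12, adjusted p = 3.32e-05). Ccl5 averaged 81.9 ± 39.0 and 271 ± 50.8 RPKM (log2 -1.83 ± 0.33, adjusted p = 0.0087), and Cd28 20.1 ± 1.41 and 4.84 ± 1.64 RPKM (log2 2.00 ± 0.23, adjusted p = 0.00156). The granzymes divided. Gzma was lower in DKO than in Ikzf1 KO cells (log2 -2.32) and Gzmk higher (log2 1.49), the direction each had in Ikzf3 KO against Cre only, and both were called. Gzmg and Gzmd went the other way. Gzmg fell to 31.3 ± 36.7 RPKM in DKO cells, against 699 ± 421 RPKM in Ikzf1 KO cells (log2 -5.03 ± 1.09, adjusted p = 0.0181), and Gzmd to 203 ± 179 RPKM, against 1484 ± 590 RPKM in Ikzf1 KO cells (log2 -3.23 ± 0.70, adjusted p = 0.0176). Jaml rose to 8.10 ± 2.52 RPKM in DKO cells, against 2.33 ± 0.786 RPKM in Ikzf1 KO cells (log2 1.61 ± 0.26, adjusted p = 0.00576), and Ptger4 to 29.7 ± 5.04 RPKM, against 17.6 ± 3.95 RPKM (log2 0.75 ± 0.18, adjusted p = 0.0279; SD, n = 3 DKO and n = 4 Ikzf1 KO libraries). Ctsg averaged 16.9 ± 12.1 and 12.4 ± 4.28 RPKM in the same order and did not pass (adjusted p = 0.967).

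**Figure D5:**
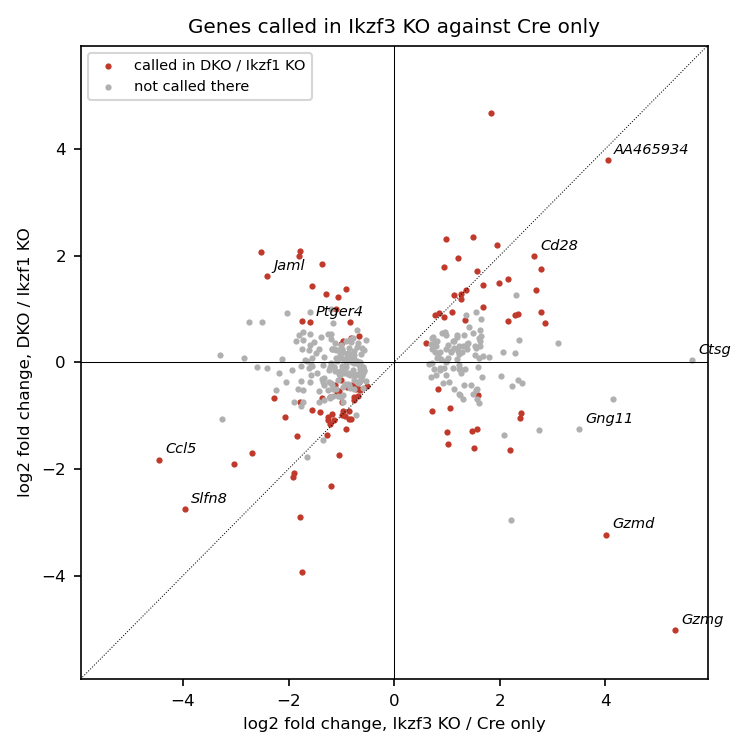
Log2 fold change of DKO over Ikzf1 KO against log2 fold change of Ikzf3 KO over Cre only, for the genes called in Ikzf3 KO against Cre only that passed the filter on low values in both comparisons. Red points were also called in DKO over Ikzf1 KO, and the dotted line marks equal changes. AA465934, Cd28, Slfn8 and Ccl5 lie in the quadrants of equal direction, Gzmg, Gzmd and Jaml in those of opposite direction, and Ctsg on the axis.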

How the data were processed

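Messenger RNA of cultured splenic NK cells was read as single-end 75 bp sequences after RNA extraction and stranded library preparation, per the labels' protocols. The authors deposited 1 table of RPKM for 11736 genes and 15 libraries, without counts. Per the submitters' processing notes, STAR, featureCounts, limma 3.34.9 and the build mm10 were used, with no settings given, and how RPKM were calculated is not given in the sources used here. The 6 directly sorted samples were not analysed here.

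A gene was tested where 3 or more of the 8 libraries reached 1 RPKM. Values were taken as log2(RPKM + 0.5), which understates the change of low genes. The model, from limma 3.58.1 under R 4.3.3, held a mean per group, a mean-variance trend and robust moderation, and left 6 residual degrees of freedom. Tests were 2-sided, with Benjamini-Hochberg adjustment over all genes tested and a threshold of 0.05. Ikzf3 KO against Ikzf1 KO and DKO against Ikzf1 KO were fitted in the same way, each on its own libraries. Fold changes are Ikzf3 KO over Cre only unless stated, with SE, and levels are mean ± SD over libraries. The p-values measure the spread between these libraries. They take the libraries of a group as independent, whereas these fell into pairs, so they may be too small.

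The genes named were the Ikaros family, the 15 rises and 15 falls with the widest gap between the nearest libraries of the groups (called, no overlap, mean of at least 5 RPKM in the higher group, predicted genes and receptor segments left out), up to 5 called members per list and marker genes. The text shows part of these, chosen after their values were seen, as were Ccl3, Ccl4, Heatr9, Slfn2, Slfn9 and the uncalled granzymes. A few genes that the rule names are not reported here. The members and the 48 gene lists were chosen with earlier results of these data known.

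Whole reads were recovered from the steps between RPKM values and GENCODE M21 exon lengths (11291 genes, 96.2%, within 0.02 read) to give depths and to run limma voom as an alternative. On simulated data with the 9631 genes, the Ikzf3 KO against Cre only test recovered 50% of 100 genes changed 2-fold and 87% of 100 changed 4-fold, with 4 false calls. The simulated noise was independent between libraries and genes, whereas the real libraries fell into pairs. These rates therefore need not hold for the real data. Promoter windows are those of RefSeq nearest to the GENCODE start, and of the 14 genes called throughout 7 had one. Scripts used Python 3.11.15, numpy 2.4.6, pandas 2.3.3 and matplotlib 3.10.9.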

Additional observations from a re-analysis of the deposited data

Results flagged for a closer look

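The effect of losing Ikzf3 was set against the same loss in cells without Ikzf1, as the difference between the log2 change of Ikzf3 KO over Cre only and that of DKO over Ikzf1 KO, in a limma fit of all 15 libraries. This difference was read for 13 genes picked after their values were seen, and it uses the libraries on which the first change was called. It passed the test for 11 of the 13, and for 206 of the 431 genes called in Ikzf3 KO against Cre only and 536 of all genes in the fit. It was positive for Gzmg (10.35, adjusted p = 0.00198), Gzmd (7.25, adjusted p = 0.00384), Ctsg (5.60, adjusted p = 0.00177), Cma1 (4.85, adjusted p = 0.00874), Gng11 (4.76, adjusted p = 0.00109) and Gzmn (4.11, adjusted p = 0.00139). Gzmn had at most 0.0652 RPKM in DKO libraries. It was negative for Jaml (-4.02, adjusted p = 8.39e-05), Ccl5 (-2.63, adjusted p = 0.00661), Ptger4 (-2.35, adjusted p = 0.000137), Tox (-1.73, adjusted p = 0.00242) and Slfn8 (-1.22, adjusted p = 0.0122). It did not pass for AA465934 (0.26, adjusted p = 0.593) and Cd28 (0.65, adjusted p = 0.489). The fit of all 15 libraries takes the same spread of a gene for every genotype. The median SD over genes, however, was lowest at 0.121 log2 units (Ikzf1 KO) and highest at 0.363 (Ikzf3 KO). With that fit the calls of the main comparison went from 431 to 1385. How far the adjusted p-values and counts of this difference depend on the shared spread was not tested.

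Single libraries stood apart from the other 3 of their group in 9 of 198 groups of 4 checked, and chance flags about 1 in 20. Among Ikzf3 KO libraries, S3 was high for Ctsg (78.8 RPKM, others 37.9 to 42.9) and Cd300lb (0.381 RPKM, others 0.231 to 0.254). S4 was high for Klra6 (6.72 RPKM, others 3.16 to 3.32) and Tox (2.20 RPKM, others 1.65 to 1.71) and low for Gzmf (14.6 RPKM, others 93.4 to 102) and Gzmn (1.42 RPKM, others 5.29 to 5.78). Among Cre only libraries, S17 was low for Jaml (15 RPKM, others 20.1 to 21.1), S16 high for Ptger4 (17.2 RPKM, others 14.7 to 15.1) and S19 high for Rftn1 (26.7 RPKM, others 20.5 to 21.3).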

How the results depend on the processing

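The count of genes called in Ikzf3 KO against Cre only (431, all without overlap between the groups) lay between 335 and 495 with other pseudocounts, filters, rescaling, quantile normalization, no trend or robust moderation, or voom on recovered reads. It was 1385 with all 15 libraries in the fit (1183 without overlap) and 2367 with array weights (1172 without overlap). Leaving out a pair gave 794 without S3 and S4, 4497 without S1 and S2 (4486 without overlap), 53 without the Cre only pair S16 and S17, and 38 without the pair S18 and S19. The share of calls that were higher was 43.2%, against 28.2% without S3 and S4 and 73.6% without S16 and S17. The filter still asked for 1 RPKM in 3 libraries, so a gene expressed only in the group that lost a pair could not be tested. These shares therefore depend in part on the filter. Leaving out 1 library gave 127 (S16) to 421 (S1) calls, all without overlap. The fall of Ikzf3 kept its direction in all alternatives and missed the threshold when the Cre only group was cut to 2 libraries, at -1.11 (S18 and S19 kept) and -1.32 (S16 and S17 kept). Of the 86 named and called genes, 37 stayed called whichever single library was left out, 12 in 5 to 7 of the 8 fits, 36 in 1 to 4, and Tbx21 in none.

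For Ikzf3 KO against Ikzf1 KO (1033 calls) the count was 1720 with all 15 libraries, 3439 with array weights, 2536 without S3 and S4, 5716 without S1 and S2, and 404 to 1458 without 1 library. For DKO against Ikzf1 KO (1700 calls) it was 734 with all 15 libraries and 777 to 3441 without 1 library. The share of called genes with the same direction in DKO against Ikzf1 KO (62.6%) was 52.8% with S16 and S17 left out, against 68.6% with S18 and S19 left out. Voom and all settings of DKO against Ikzf1 KO were chosen after seeing the data.

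Among the uncalled genes for which every alternative was computed, Gzmc, Gzmb and Prf1 changed sign. Gzmc (log2 0.11) was -0.36 without S18 and S19, -0.10 without S1 and S2, and -0.16 (without S19) to 0.27 without 1 library, where it was also negative without S2 (-0.0072). Gzmb (-1.16) was 0.054 without S3 and S4 and -2.38 without S1 and S2, where it was called (adjusted p = 0.000182). Prf1 (-0.23) was 0.25 with array weights, 0.54 without S3 and S4, -1.01 without S1 and S2, 0.18 in the fit lacking S16 and S17, and -0.52 to 0.21 without 1 library. The cause was not tested. No paired analysis was possible because the table's columns carry no replicate numbers, so the planned fit with a replicate term was not run. Depth limits only low genes: 1 read of a 2 kb gene is worth 0.0306 to 0.0569 RPKM in the 8 libraries.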

Other observations

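Il18, Fas and Slfn5 are genes of the lists that missed the filter on low values. They were picked out after their values were seen. Il18, the gene of a cytokine that activates NK cells, had 0.408, 0.331, 4.16 and 3.84 RPKM in Ikzf3 KO libraries, against 0.134 RPKM in S16 and 0 in the other Cre only libraries. Fas, a death receptor, had 0.28, 0.443, 2.96 and 4.03 RPKM in Ikzf3 KO libraries, against 0.384, 0.264, 0.536 and 0.611 RPKM in Cre only libraries. In both, S3 and S4 were the high ones. Slfn5, the first gene of the chromosome 11 stretch, had 0.213, 0.144, 0.138 and 0.182 RPKM in Ikzf3 KO libraries, against 0.897, 1.15, 0.81 and 0.367 RPKM in Cre only libraries.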
